A study of Bactrocera dorsalis with 16 samples.

Results

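The maturing ovary of the oriental fruit fly, Bactrocera dorsalis, was described by setting small RNA libraries from ovaries at day 13 of adult life against libraries from ovaries at day 5, counting days from emergence from the pupal case. All flies were adult females of a laboratory colony fed on yeast extract and sugar, and neither a genotype nor a treatment separates the groups, so that age is the labelled difference. There were 2 libraries at day 13 and 2 at day 5, described as biological replicates, without a statement of how many animals each held. The p-values below therefore measure the spread between samples, pooled over the 12 libraries of ovary and fat body in the fit. A mature sequence was included when its value reached 10 in at least 2 of the 4 libraries, which took in 261 of the 747 distinct sequences of the deposited table. Of these, 188 were named after known miRNAs and 73 carried a PC name, which the software gives to predicted candidates. Sequences that fell are included, and 38 members reached 10 only at day 13, in both libraries, while 11 did so only at day 5.

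MicroRNAs are short RNAs cut from hairpin precursors that guide repression of messenger RNAs, chiefly through pairing of the bases near their 5′ end, the seed. In the insect ovary they act in the germ line, in the follicle cells that surround and nourish each oocyte, and as a maternal store laid down in the egg. In Drosophila, the miR-309 cluster (miR-309, miR-3, miR-286, miR-4, miR-5 and miR-6) is known from the early embryo, where its miRNAs take part in clearing maternal messenger RNA, and miR-318, miR-994 and miR-989 are known as ovary miRNAs.

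The sequences that the results turn on are given here as in the deposited table, 5′ to 3′ with T for U, and the capitals mark the seed, bases 2 to 8. Several of those that gained most between the days are grouped here by seed, which forms of the same miRNA often share. The first group joins miR-309 of the embryonic cluster with miR-318 of the ovary.
bdo-miR-309b: tCACTGGGtaaagtttgtcct
bdo-miR-309a_R-2: tCACTGGGtaaagtttgtcc
bdo-miR-318: tCACTGGGctttgtttatctca
The next joins miR-286 of the cluster with miR-279, which acts outside it.
bdo-miR-286: tGACTAGAccgaacactcgtgct
dgr-miR-279_R-2: tGACTAGAtccacactcatt
The third is the K-box seed, shared by miR-6 and the 3′ arm of miR-5 with the widely expressed miR-11 and miR-13.
bdo-miR-6: tATCACAGtggctgttccttat
bdo-miR-5b: tATCACAGtgattttccttgt
bdo-miR-11: cATCACAGtctgagttcttgct
bdo-miR-13a: tATCACAGccattttgacgagtt
The 5′ arm of miR-4 carries the seed of miR-9, and the main miR-4 form starts 1 base before a minor form whose seed is that of miR-79.
bdo-mir-4-p5: tCTTTGGTggcctagctttga
bdo-miR-9b_R-1: tCTTTGGTgattttagctgtat
bdo-miR-4_R-2: aTAAAGCTagacaaccattg
dan-miR-4_L-1R+2_1ss21AC: tAAAGCTAgacaaccattgcag
bdo-miR-79: tAAAGCTAgattaccaaagcat
A predicted candidate shares the seed of the ovary miRNA miR-92.
ame-miR-92a-3p_L+1: tATTGCACttgtcccggcctat
PC-3p-204_49387: tATTGCACaatccccggcctga
The remaining ones are the other abundant gains, miR-994 and miR-263a, and the abundant falls, miR-31, miR-999, miR-1 and miR-278. Also shown is miR-989, whose higher signal at day 13 did not pass the test used below.
bdo-miR-994_R+1: tAAGGAAAtagtagccgtgatt
dvi-miR-989-3p_R+1: tGTGATGTgacgtagtggaaca
bdo-miR-263a_R-3: aATGGCACtggaagaattcac
dme-miR-31b-5p_R+1_1ss15AC: tGGCAAGAtgtcggcatagctga
bdo-miR-999: tGTTAACTgtaagactgtgtct
bdo-miR-1: tGGAATGTaaagaagtatggag
dme-miR-278-3p: tCGGTGGGactttcgtccgttt
Suffixes such as R+1 or L-1 in these names give bases added or lost at an end against the named miRNA, and 1ss a substitution. Isoforms and both arms of a hairpin are separate sequences here, and reads of near-identical forms may have been divided between them, so members of a family are not independent.

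Values are the authors' normalised signal per sequence, whose method of scaling is not given. Their sum was 820010 and 976251 in the day 13 ovaries, against 446487 and 434089 in the day 5 ovaries, 2.04 times as much on average. The reads recovered from the spacing of the values were 1864984 and 1079825 at day 13, against 193956 and 383766 at day 5, so the day 5 values are the less precise. Between 92.1% and 96.9% of low values per library were whole reads within a tolerance of 0.1. Because the summed signal differed, every change was also fitted on 3 other scales, namely library totals, TMM factors, and TMM factors without the 5 most abundant sequences. The median log2 change of the 308 sequences tested was 0.63 on the deposited values, -0.30 with library totals, 0.08 with TMM and -0.10 with TMM without the 5 most abundant. The test was limma on log2(value + 1) over 12 libraries (days 1, 5 and 13 of ovary and fat body, 2 per group), with Benjamini-Hochberg adjustment over all 308 and a threshold of 0.05. "Called" below means past that threshold. A log2 change on this scale understates the change of sequences near 0. The libraries of day 9 were left out because the second replicate of each tissue at that day resembles the other tissue.

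At day 13, sequences that were absent or nearly so at day 5 made up a large part of the ovary library. Several leading miRNAs of the day 5 ovary took smaller shares, but miR-989, miR-12 and miR-11 did not. Their mean shares were 7.74%, 5.06% and 3.73% at day 13, against 5.67%, 3.30% and 3.44% at day 5. The days overlapped for miR-12, with 6.48% and 3.645% at day 13, against 2.72% and 3.88% at day 5. They also overlapped for miR-11, with 3.31% and 4.15% at day 13, against 3.30% and 3.57% at day 5. The miR-309 cluster, miR-318 and miR-994 together held 27.1% and 32.8% of the library total at day 13, against 0.093% and 0.095% at day 5. Of the 261 members, limma called 141, where 48.7% of all sequences tested were called. Of these, 96 were higher and 45 lower at day 13, beside 32.1% higher and 16.6% lower over all tested. The members' median log2 change was 0.76, beside 0.63 over all tested. With library totals 54 members were called higher and 71 lower (17.9% and 26.6% of all tested), with TMM 72 and 61 (23.4% and 22.7%), and the last scale gave 59 and 67 (19.2% and 24.7%). On all 4 scales, 54 members were called higher and 45 lower, beside 17.5% and 16.6% over all tested. Both libraries of day 13 lay above both of day 5 for 135 members and below for 64, and the days overlapped for 62, whereas 73.1% of all tested did not overlap. Members that could enter through day 13 alone had to be higher there, so these counts describe the members and carry no further weight.

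**Figure D1:**
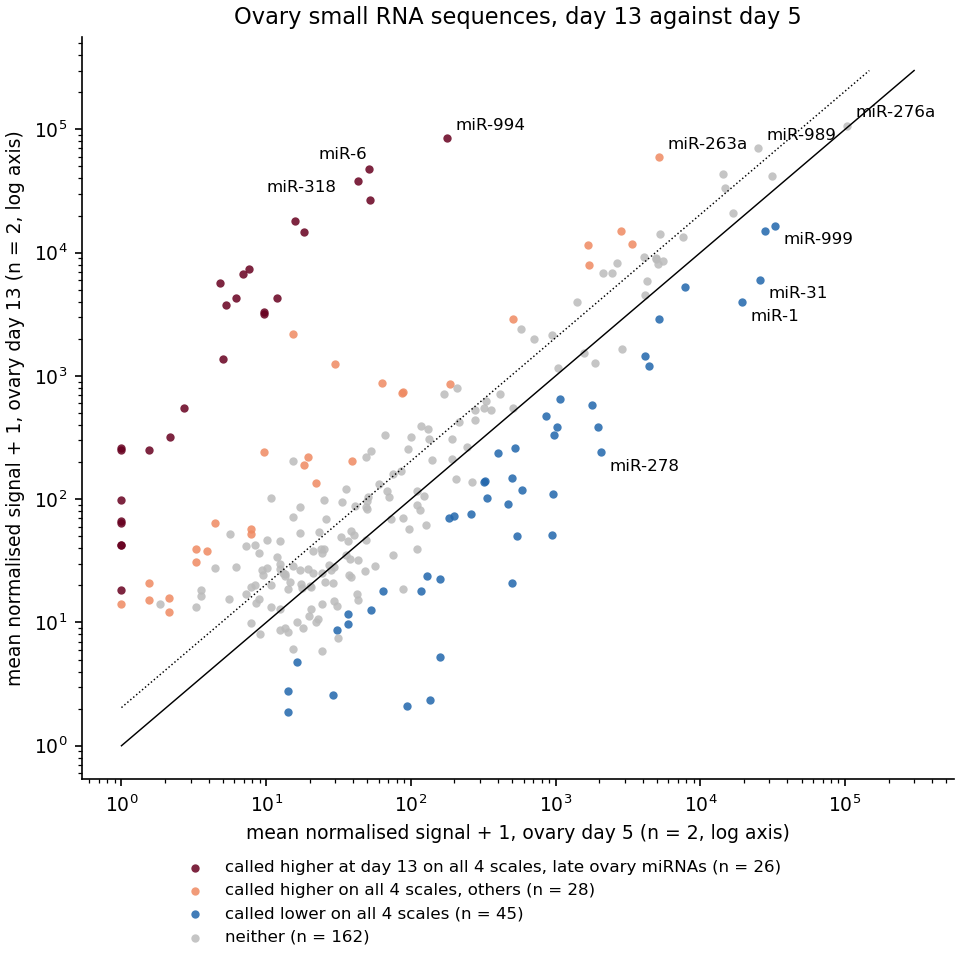
Mean normalised signal + 1 at ovary day 13 (y axis) against ovary day 5 (x axis), both log axes, n = 2 libraries each; each point is 1 of the 261 members. The late ovary miRNAs are the miR-309 cluster, miR-318 and miR-994; the solid line marks equal signal and the dotted line the 2.04-fold ratio of the summed signal. The 26 late ovary sequences stand far above both lines, and the 45 sequences called lower on all 4 scales lie under the solid line.

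The miR-309 cluster rose as a whole. Its sequences took 14.3% and 17.8% of the library total at day 13, against 0.049% and 0.034% at day 5, a 382-fold ratio of the mean shares, and 0.019% and 0.011% at day 1. All 21 cluster sequences among the members were called higher, on each of the 4 scales, beside 17.5% of all tested. Their median log2 change was 8.44, with a range of 4.17 to 10.21. Those under 10 in both day 5 libraries could become members only through day 13, so the count describes them and carries no further weight. The table holds 28 sequences of the cluster, of which 7 did not reach the minimum of 10, and none of the 28 carries the name miR-3. By miRNA, miR-6 took 6.12% and 8.35% of the day 13 libraries and 0.018% and 0.012% of the day 5 libraries. The shares of miR-286 were 2.82% and 3.49% at day 13, against 0.013% and 0.012% at day 5, those of miR-5 2.43% and 2.19% at day 13, against 0.010% and 0.004% at day 5, and those of miR-4 1.69% and 2.50% at day 13, against 0.006% and 0.004% at day 5. The lowest of the cluster was miR-309 itself, with 1.20% and 1.28% at day 13, against 0.003% and 0.002% at day 5.

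The main form of miR-6 (bdo-miR-6), a K-box miRNA known in Drosophila embryos to restrain cell death genes, had 36372 and 58585 at day 13, against 59.9 and 40.7 at day 5. Both day 13 libraries lay far above both of day 5, with a 944-fold ratio of means (log2 change 9.84, SE 0.80, adjusted p = 5.05e-06). A related sequence that starts with C, ends earlier and also differs inside, dme-miR-6-3p_R-2_1ss1TC, had 13452 and 22499 at day 13, against 18.4 and 11.3 at day 5 (log2 change 10.14, SE 0.73). Both carry the same seed. The 5′ arm of miR-6, bdo-mir-6-p5, had 237 and 264 at day 13 and was at 0 in both day 5 libraries. Against a floor of 3 reads per library it was at least 48.6-fold higher.

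The main form of miR-286 (bdo-miR-286) had 21161 and 32641 at day 13, against 53.0 and 48.6 at day 5 (530-fold, log2 change 8.99, SE 0.78, adjusted p = 6.74e-06). Its seed partner miR-279, known in Drosophila for cell fate and migration in the nervous system and ovary, started from a higher level. It had 11345 and 18588 at day 13, against 3435 and 2250 at day 5 (log2 change 2.38, SE 0.36, adjusted p = 3.42e-04). The 7 sequences of the table with this seed together took 4.23% and 5.42% of the library total at day 13, against 0.85% and 0.587% at day 5. Of these, 4 were members, and all 4 were called higher, 3 of them on all 4 scales, beside 32.1% and 17.5% of all tested. The exception was the related dme-miR-996-3p, with 469 and 581 at day 13, against 302 and 248 at day 5, whose log2 change of 0.93 was -0.09 with library totals.

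Forms of miR-309 and miR-318, which share a seed, moved together. The form bdo-miR-309b had 6697 and 7913 at day 13, against 6.91 and 6.22 at day 5 (log2 change 9.91, SE 0.96, adjusted p = 1.53e-05). The form bdo-miR-309a_R-2, whose 20 bases are those of miR-309b without its last, had 3074 and 4479 at day 13, against 4.60 and 3.96 at day 5 (log2 change 9.46, SE 0.78). Reads of these forms cannot be assigned to 1 locus from their sequence. In mosquitoes miR-309 is known for a role in ovary growth after a blood meal. Main miR-318 (bdo-miR-318), abundant in Drosophila ovaries, had 33506 and 42138 at day 13, against 36.8 and 47.5 at day 5 (897-fold, log2 change 9.78, SE 0.85, adjusted p = 6.81e-06). All 5 members with this seed were called higher on all 4 scales, beside 17.5% of all tested, but all except bdo-miR-318 could become members only through day 13. Their summed share was 5.32% and 5.62% at day 13, against 0.011% and 0.014% at day 5.

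Both arms of the hairpins of miR-5b, miR-5a and miR-4 were present at day 13. Of miR-5b, the 3′ arm sequence bdo-miR-5b had 4837 and 6564 at day 13, against 4.60 and 3.02 at day 5 (log2 change 10.21, SE 1.10, adjusted p = 3.10e-05), the largest change among the members. Its 5′ arm sequence bdo-mir-5b-1-p5_1ss19GT had 3030 and 3306 at day 13, against 11.5 and 5.66 at day 5 (log2 change 8.44, SE 0.73). Both arms were thus far higher at day 13. Of miR-5a, a separate hairpin, the 3′ arm sequence bdo-mir-5a-p3 had 6807 and 6554 at day 13, against 9.21 and 2.64 at day 5 (log2 change 10.10, SE 1.03). Its 5′ arm sequence bdo-miR-5a had 4319 and 4239 at day 13, against 16.1 and 5.66 at day 5 (log2 change 8.65, SE 0.71). The pair of hairpins showed the same pattern. For miR-4, the 3′ arm sequence bdo-miR-4_R-2 had 10635 and 18779 at day 13, against 18.4 and 15.8 at day 5 (log2 change 9.61, SE 0.83, adjusted p = 6.74e-06). Its 5′ arm partner bdo-mir-4-p5, with the miR-9 seed, had 3103 and 5469 at day 13, against 9.21 and 1.13 at day 5 (log2 change 9.79, SE 1.04). The form that starts 1 base later and has the miR-79 seed, dan-miR-4_L-1R+2_1ss21AC, stayed low at 39.6 and 43.4 at day 13, and was at 0 in both day 5 libraries, at least 8.1-fold higher. Day 5 values of 1 to 10 in these sequences stand for few reads, so that their folds are imprecise.

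Outside the cluster, miR-994 was the largest gain by amount. Its main form (bdo-miR-994_R+1) had 68481 and 101141 at day 13, against 145 and 210 at day 5 (477-fold, log2 change 8.89, SE 0.82, adjusted p = 1.07e-05). It was the second most abundant sequence of the day 13 ovary, with all miR-994 forms together at 8.75% and 10.7% of the library total, against 0.035% and 0.050% at day 5. The minor form dme-miR-994-3p_L+1R-1 had 3292 and 3338 at day 13, against 11.5 and 5.66 at day 5 (386-fold, SE 0.85 on the log2 scale). As a share, miR-318 took 4.12% and 4.35% at day 13, against 0.008% and 0.011% at day 5, so both ovary miRNAs were low at day 5 and high in both day 13 libraries, as the cluster was.

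Earlier onset was seen for miR-989, which in Drosophila is needed in border cells, follicle cells that migrate to the oocyte. Its share was 0.283% and 0.209% at day 1, 4.74% and 6.595% at day 5 and 7.01% and 8.48% at day 13. The main form (dvi-miR-989-3p_R+1) had 57486 and 82625 at day 13, against 21167 and 28623 at day 5. Although the days did not overlap, the change was not called (log2 change 1.49, SE 0.68, adjusted p = 0.0940), and it was 0.46 with library totals (adjusted p = 0.603). Without fat body day 13 replicate 1 or 2, which take part in the pooled spread, limma called it (adjusted p = 0.0341 either way). Main miR-995 (bdo-miR-995), whose seed is shared with miR-998, was called higher on all 4 scales. It had 2556 and 3215 at day 13, against 497 and 512 at day 5 (log2 change 2.50, SE 0.32, adjusted p = 1.11e-04). All 5 members with this seed were called higher, but only 3 of them on all 4 scales, beside 32.1% and 17.5% of all tested.

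**Figure D2:**
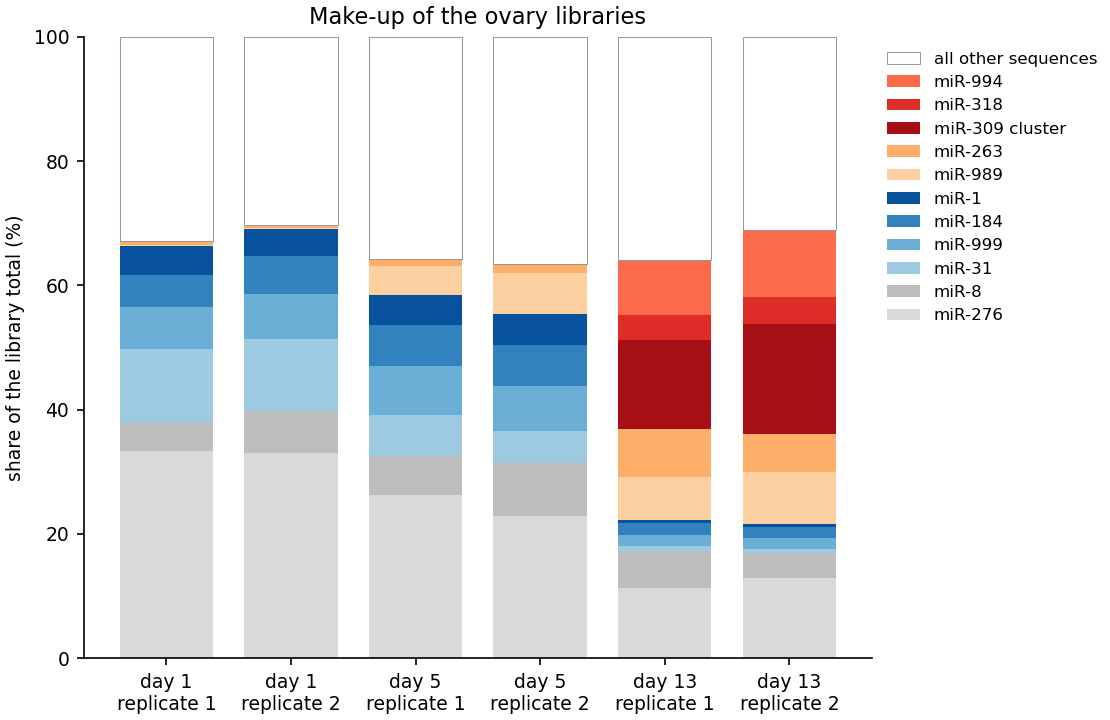
Share of the library total (%, y axis) held by named miRNA families in each ovary library at days 1, 5 and 13 (x axis, 2 libraries per day); all sequences of the table with the family's name are summed, and the white part holds the rest. The miR-309 cluster, miR-318 and miR-994 fill 27.1% and 32.8% at day 13 and are too thin to see at days 1 and 5, while miR-31, miR-999, miR-184 and miR-1 shrink.

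The miR-92 group changed less and in part. Main miR-92a (ame-miR-92a-3p_L+1) had 7891 and 8080 at day 13, against 1873 and 1540 at day 5 (log2 change 2.23, SE 0.35, adjusted p = 4.88e-04) and was called higher on all 4 scales. For bdo-miR-92b the values were 3882 and 4136 at day 13, against 1466 and 1336 at day 5 (log2 change 1.52, SE 0.31, adjusted p = 0.00272), but only 0.49 with library totals (adjusted p = 0.244). The candidate PC-3p-204_49387, whose seed is the same, had 10852 and 12322 at day 13, against 2010 and 1347 at day 5 (log2 change 2.81, SE 0.37, adjusted p = 1.53e-04). It stood above both miR-92 forms at day 13. Of 5 members with this seed, 3 were called higher and 2, both under 140 in each library, were not.

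Among the gut markers miR-263a, miR-263b and miR-281, listed as another tissue that a dissection could hold, the rise was in miR-263a. Its main form (bdo-miR-263a_R-3), which in Drosophila protects sensory bristle cells and is found in the intestine, had 61556 and 57919 at day 13, against 4473 and 5842 at day 5 (11.6-fold, log2 change 3.55, SE 0.19, adjusted p = 4.41e-07). With library totals the change was 2.52. All miR-263 forms together took 7.67% and 5.998% of the library total at day 13, against 1.02% and 1.38% at day 5. The list had 4 of 6 members called higher, all miR-263a sequences, and 3 of them on all 4 scales. The other gut markers did not pass, with bdo-miR-281 at 234 and 385 at day 13, against 159 and 225 at day 5 (log2 change 0.66, adjusted p = 0.232). Under the minimum of 10, bdo-miR-263b had 3.08 and 2.71 at day 13, against 2.30 and 7.92 at day 5 (log2 change -0.48, adjusted p = 0.577). The summed level of the list's 15 sequences was 63544 and 59564 at day 13, against 4936 and 6731 at day 5, and the part of gut tissue in this was not tested.

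Other gains were of moderate size, and many depended on the scale. In the miR-9 family, which includes miR-79 and miR-306, 7 of 10 members were called higher and 1 lower, with a median of 1.69, but 2 and 1 on all 4 scales. The family is known in Drosophila from sense organ precursors. Main miR-9b (bdo-miR-9b_R-1) had 10181 and 13220 at day 13, against 3073 and 3630 at day 5 (log2 change 1.80, SE 0.22, adjusted p = 6.84e-05), and 0.77 with library totals. The member that fell was aae-miR-9a, with 119 and 175 at day 13, against 609 and 385 at day 5 (log2 change -1.74, SE 0.41, adjusted p = 0.00625). The called forms of miR-9b and miR-9c went the other way.

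Of the K-box miR-2 family without miR-6 (miR-2, miR-11, miR-13 and miR-308), 3 of 18 members were called higher and 1 lower, and the median of 0.51 was -0.50 with library totals. The abundant miR-11 (bdo-miR-11) had 26627 and 39995 at day 13, against 14464 and 15085 at day 5 (log2 change 1.14, SE 0.22, adjusted p = 0.00167), but its share was 3.25% and 4.10% at day 13, against 3.24% and 3.48% at day 5. The whole seed, with miR-6 and the miR-5 arm, took 14.2% and 15.7% at day 13, against 6.35% and 6.82% at day 5. The K-box family list itself had similar shares at both days, with overlapping libraries. Together miR-2, miR-11, miR-13 and miR-308 held 6.68% and 6.08% at day 13, against 6.52% and 7.001% at day 5. Within the family the 3′ arm of miR-308, bdo-mir-308-p3, was called higher on all 4 scales, at 160 and 317 at day 13, against 13.8 and 3.39 at day 5 (log2 change 4.81, SE 0.71, adjusted p = 3.11e-04).

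The miRNAs miR-12, miR-283 and miR-304 lie in 1 cluster in Drosophila, and the first pair was called higher on the deposited values. Main miR-12 (bdo-miR-12_R+1) had 52311 and 35203 at day 13, against 11984 and 16551 at day 5 (log2 change 1.61, SE 0.29, adjusted p = 0.00117), but 0.58 with library totals (adjusted p = 0.182). For bdo-miR-283 the values were 7116 and 6577 at day 13, against 1904 and 2964 at day 5 (log2 change 1.53, SE 0.24, adjusted p = 5.00e-04). As a share, all miR-283 forms took 0.898% and 0.692% at day 13, against 0.437% and 0.71% at day 5, and the days overlapped. The values of bdo-miR-304_R-1 were 21361 and 20882 at day 13, against 17521 and 16024 at day 5, and it was not called (log2 change 0.33, SE 0.20, adjusted p = 0.183).

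In the list of miRNAs known from mosquito egg development, 9 of 14 members were called higher and 0 lower, with a median of 1.33, and 5 on all 4 scales. Of those 5, 3 are miR-309 forms and 1 a minor miR-989 form, so the list is not separate from the results above. The fifth was the 5′ arm of miR-275, bdo-mir-275-p5, with 225 and 151 at day 13, against 23.02 and 11.3 at day 5 (log2 change 3.43, SE 0.61, adjusted p = 0.00112). The main arm bdo-miR-275, required in mosquitoes for blood digestion and egg growth, had 10574 and 7396 at day 13, against 4648 and 5185 at day 5 (log2 change 0.85, SE 0.22, adjusted p = 0.0106), and its sign turned with library totals (-0.17).

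Several sequences known only by a software name or a poorly characterised one also gained. The candidate PC-3p-2124_7946, of 18 bases, had 1881 and 2528 at day 13, against 25.3 and 3.39 at day 5 (log2 change 7.66, SE 0.92, adjusted p = 6.84e-05). The sequence bdo-miR-11595_R+2, of 26 bases, had 1518 and 955 at day 13, against 18.4 and 39.6 at day 5 (log2 change 5.42, SE 1.35, adjusted p = 0.00757). Of the 73 candidates among the members, 20 were called higher and 8 lower, and their median was 0.88 on the deposited values and -0.06 with library totals. Of the 32 with 18 or 19 bases, 4 were called higher and 7 lower, and of the 41 that are longer, 16 higher and 1 lower. Over all tested, 32.1% were called higher and 16.6% lower. On all 4 scales the calls were 2 higher and 7 lower among the short ones, and 7 higher and 1 lower among the longer ones.

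**Figure D3:**
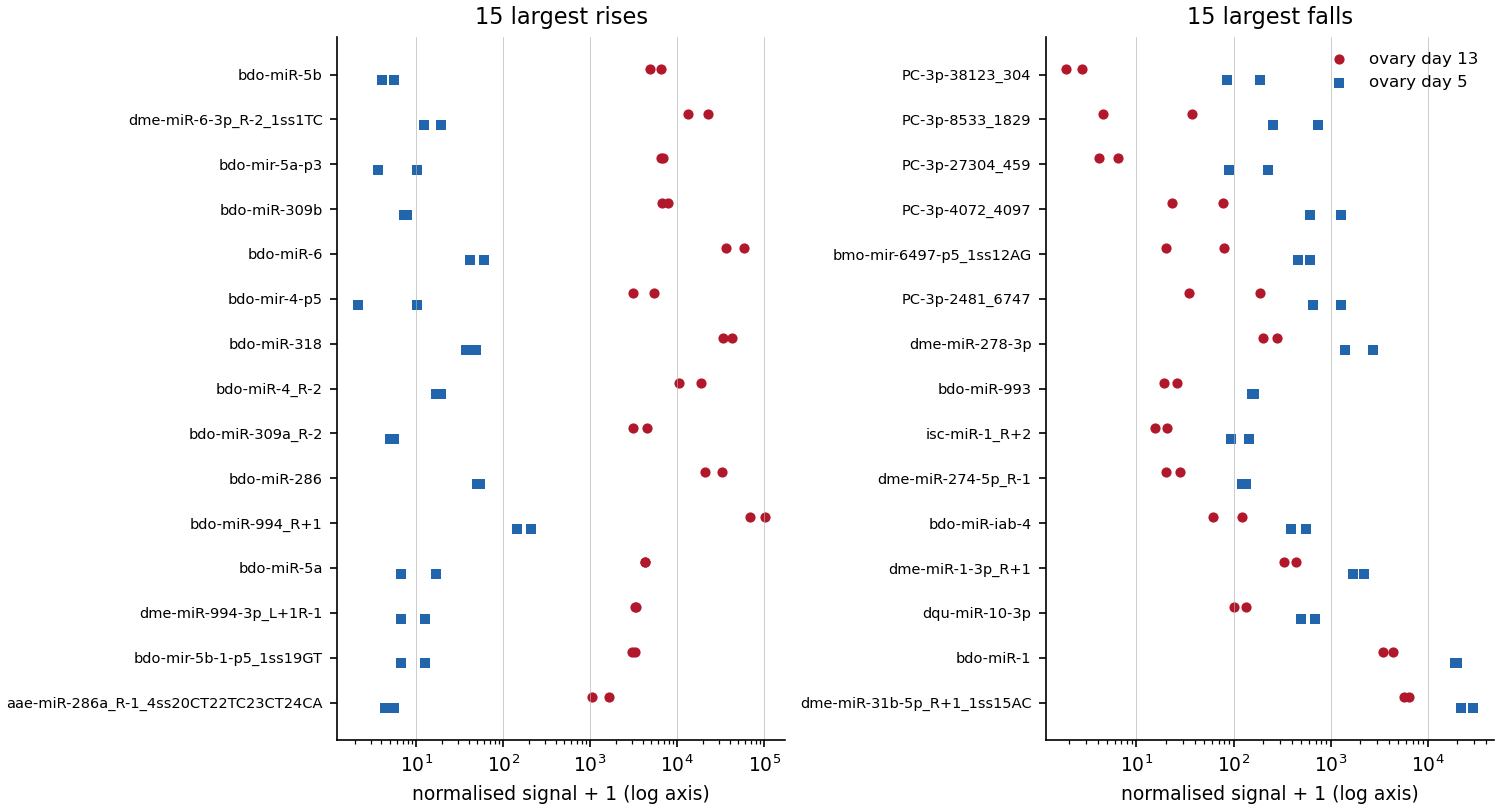
Normalised signal + 1 (x axis, log scale) in each library for the 15 called members with the largest rise (left) and the 15 with the largest fall (right), taken from those whose days do not overlap and whose higher day averaged at least 100; circles are ovary day 13 and squares ovary day 5, 2 libraries each. The 15 rises are all of the miR-309 cluster, miR-318 or miR-994.

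Falls were smaller than the leading rises and were found among the miRNAs that dominate the younger ovary. Main miR-31 (dme-miR-31b-5p_R+1_1ss15AC) had 6403 and 5691 at day 13, against 29574 and 22235 at day 5 (4.29-fold lower, log2 change -2.09, SE 0.17, adjusted p = 5.05e-06). Its day 1 values were 61505 and 63174, so each later day was lower than the one before. Main miR-999 (bdo-miR-999) had 15002 and 18116 at day 13, against 34634 and 30814 at day 5 (log2 change -0.99, SE 0.21, adjusted p = 0.00275). By share it was the second most abundant sequence of the day 5 ovary.

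From the list of follicle and ovary miRNAs, miR-184 is known in Drosophila for development of the female germ line. It had 14438 and 15575 at day 13, against 28527 and 26984 at day 5 (bdo-miR-184, log2 change -0.89, SE 0.18, adjusted p = 0.00272). Its forms together had more signal in fat body, with 45568 and 57630 at day 13, against 15090 and 16036 in ovary. At day 5 they had 45489 and 35226 in fat body, against 29321 and 28315 in ovary. Main miR-316 (bdo-miR-316) had 1743 and 1173 at day 13, against 3593 and 4726 at day 5 (log2 change -1.53, SE 0.24, adjusted p = 5.00e-04). Main miR-7 (bdo-miR-7_R-3), which acts in Drosophila germ line stem cells, had 5335 and 5191 at day 13, against 6609 and 9008 at day 5 (log2 change -0.55, SE 0.20, adjusted p = 0.0429). Each of these was called lower on all 4 scales, and for each the days did not overlap. Within the list of follicle and ovary miRNAs, 10 of 27 members were thus called higher and 10 lower, and the median of 0.76 was -0.25 with library totals.

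A fall of miR-278 stood out among the fat body and metabolism miRNAs. This miRNA, known in Drosophila for energy balance, had 201 and 281 at day 13, against 2723 and 1398 at day 5 (dme-miR-278-3p, 8.55-fold lower, log2 change -3.03, SE 0.33, adjusted p = 3.21e-05). Of 19 members of the fat body list, 3 were called higher and 5 lower, and 0 and 5 on all 4 scales. The 5 were miR-278, miR-274, miR-252 and both miR-276b 3′ forms. Main miR-274 (dme-miR-274-5p_R-1) had 18.9 and 27.1 at day 13, against 122 and 133.5 at day 5 (log2 change -2.44, SE 0.33, adjusted p = 1.63e-04). Main miR-252 (bdo-miR-252) had 120 and 81.4 at day 13, against 403 and 269 at day 5 (log2 change -1.72, SE 0.28, adjusted p = 5.48e-04). Other members of the list had more signal at day 13. Main miR-14 (bdo-miR-14) had 12159 and 14732 at day 13, against 8471 and 6819 at day 5. As a share, all miR-14 forms took 1.59% and 1.57% at day 13, against 1.98% and 1.70% at day 5.

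The most abundant sequence at both days, miR-276a (bdo-miR-276a), had 90470 and 124349 at day 13, against 111999 and 95126 at day 5, and the days overlapped. It was not called (log2 change 0.04, SE 0.18, adjusted p = 0.881), yet its share was 11.03% and 12.7% at day 13, against 25.1% and 21.9% at day 5, and with library totals it was called lower (-0.98, adjusted p = 1.18e-04). The 3′ sequence bdo-mir-276b-p3 was lower on every scale, at 1007 and 1406 at day 13, against 4914 and 3967 at day 5 (log2 change -1.89, SE 0.21, adjusted p = 4.42e-05). Main miR-8 (bdo-miR-8_R+1), which in the Drosophila fat body promotes growth, had 47354 and 36579 at day 13, against 26565 and 35902 at day 5 and was not called (log2 change 0.43, SE 0.24, adjusted p = 0.159). Other abundant sequences with small changes were dme-miR-277-3p (-0.04), bdo-miR-2b_R-3 (0.14), bdo-miR-100 (0.14) and bdo-miR-304_R-1 (0.33), whose signs turned negative with library totals except for miR-277, already below 0.

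Markers of muscle fell. Main miR-1 (bdo-miR-1), the muscle miRNA of animals, had 3496 and 4427 at day 13, against 19901 and 19197 at day 5 (4.93-fold lower, log2 change -2.31, SE 0.15, adjusted p = 8.82e-07). All 4 muscle members, each a miR-1 sequence, were called lower on all 4 scales, with a median of -2.33. The 6 muscle sequences of the table summed to 3962 and 4781 at day 13, against 21736 and 21577 at day 5, and the other muscle marker, aae-miR-133, was at 0.44 and 0.90 at day 13, against 2.30 and 0 at day 5. In bulk tissue, fewer cells of a type and less RNA per cell cannot be told apart. Of 3 nerve members, miR-137 and miR-1000 were called lower, and bdo-miR-137 had 118 and 32.6 at day 13, against 292 and 223 at day 5 (log2 change -2.02, SE 0.54, adjusted p = 0.0109). The nerve list summed to 164 and 51.5 at day 13, against 380 and 282.8 at day 5. The part of muscle and nerve tissue around the ovary in the other falls was not tested.

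The let-7 complex, which in Drosophila acts in the passage to adult stages, included 4 sequences that fell. Its 3 miRNAs held 0.653% and 0.689% of the library total at day 13, against 2.42% and 2.02% at day 5. Of 10 members, 4 were called lower on all 4 scales and 0 higher, and the median of -0.70 stayed below 0 on each scale. Main let-7 (bdo-let-7) had 2446 and 3308 at day 13, against 5859 and 4423 at day 5 (log2 change -0.84, SE 0.21, adjusted p = 0.00757). Its neighbour bdo-miR-125 had 1102 and 1440 at day 13, against 1929 and 1805 at day 5, and was not called (log2 change -0.57, adjusted p = 0.0838). In the miR-34, miR-277 and miR-317 cluster, linked in Drosophila to ageing, 3 of 8 members were called higher and 0 lower, none of them on all 4 scales, and the median of 0.29 was -0.72 with library totals.

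Of 7 members named miR-iab-4, miR-10 or miR-993, which lie in Hox gene clusters in Drosophila, 5 were called lower and 2 were not called, a grouping made after their values were seen. The sequence bdo-miR-iab-4, from the Hox locus of the abdomen, had 121 and 60.6 at day 13, against 552 and 389 at day 5 (log2 change -2.42, SE 0.40, adjusted p = 7.13e-04). Sequences of both arms of miR-10 were called lower, dqu-miR-10-3p at 134 and 99.5 at day 13, against 493 and 686 at day 5 (log2 change -2.32, SE 0.43, adjusted p = 0.00135), and bdo-miR-10 at 450 and 212 at day 13, against 847 and 1092 at day 5 (log2 change -1.63, SE 0.48). The sequence bdo-miR-993 had 25.1 and 18.1 at day 13, against 154 and 160 at day 5 (log2 change -2.82, SE 0.52, adjusted p = 0.00136). The 2 not called were pte-miR-10-5p_1ss12TA (log2 change -0.92, adjusted p = 0.273) and bdo-mir-993-p5 (log2 change -1.98, adjusted p = 0.0842).

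Among the called members whose higher day averaged at least 100, the 6 largest falls by fold were short sequences of 18 to 20 bases. Of these, bmo-mir-6497-p5_1ss12AG is named after an arm of a silkworm miRNA. Its end repeats the start of the sequence named as the other arm. The other 5 are predicted candidates. The largest, PC-3p-38123_304, of 20 bases, had 1.76 and 0.90 at day 13, against 186 and 83.7 at day 5 (log2 change -5.78, SE 1.00, adjusted p = 8.91e-04). Under that mean lay the second largest fall of all members, PC-5p-27616_453, of 18 bases, with 0.44 and 1.81 at day 13, against 140 and 46.4 at day 5 (log2 change -5.35, SE 1.32, adjusted p = 0.00714). The most abundant of the 6 at day 5, PC-3p-2481_6747, had 33.9 and 184.4 at day 13, against 1264 and 654 at day 5 (log2 change -3.50, SE 0.65, adjusted p = 0.00136). Sequences of 18 or 19 bases, which can hold fragments of other RNAs, made up 0.68% and 1.54% of the library total at day 13, against 2.37% and 1.28% at day 5, and their part in these falls was not tested. In fat body each of the 6 also had a negative log2 change, with PC-3p-2481_6747 at 286.4 and 392 at day 13, against 1406 and 848 at day 5, and PC-3p-4072_4097 at 192 and 299 at day 13, against 1142 and 800 at day 5.

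**Figure D4:**
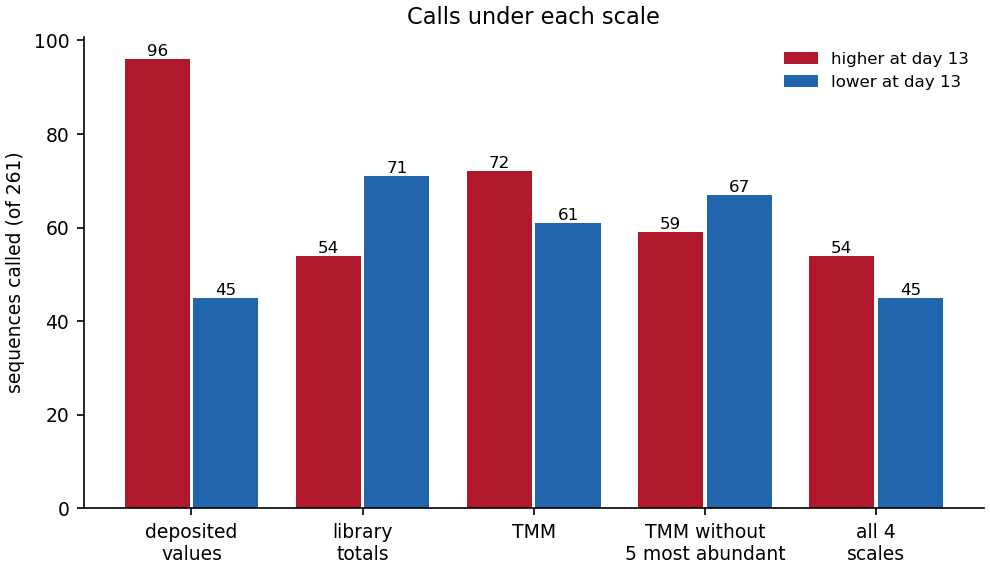
Number of the 261 members called higher (left bars) and lower (right bars) at day 13 on the deposited values, library totals, TMM, TMM without the 5 most abundant sequences, and on all 4 of these. Higher calls run from 54 with library totals to 96 with the deposited values, lower calls from 45 to 71, and 54 and 45 hold on every scale.

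Whether the change differed between tissues was tested as the ovary change minus the fat body change between the same days. The difference was called for 92 members, where 32.8% of all tested were called. Of the members, 63 had a more positive change in ovary and 29 a more negative one, where 21.1% and 11.7% of all tested did. All 21 members of the miR-309 cluster had the more positive change in ovary. In fat body bdo-miR-6 had 44.8 and 344 at day 13, against 67.5 and 130 at day 5, and the difference in log2 change was 9.43 (SE 1.13, adjusted p = 1.32e-04). The second fat body library of day 13 held more than the first of 17 of the 21 cluster sequences, and it held 273 of bdo-miR-318 and 749 of bdo-miR-994_R+1, where the first held 24.8 and 91.9. The source of these was not tested.

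Main miR-263a showed the difference as well, at 9860 and 8789 in fat body at day 13, against 9056 and 6899 at day 5 (difference 3.31, SE 0.27, adjusted p = 1.81e-05). The more negative ovary changes included miR-1, which had 79036 and 82675 in fat body at day 13, against 36961 and 35205 at day 5, a difference of -3.48 (SE 0.21, adjusted p = 4.64e-06). For miR-34 (dvi-miR-34-5p) the fat body had 44222 and 42294 at day 13, against 4464 and 4852 at day 5, while the ovary change of 0.46 was not called, and the difference was -2.76 (SE 0.33, adjusted p = 1.31e-04). Members of the fat body list accounted for 9 of the more negative changes and 0 of the more positive ones, and the miR-9 family for 0 and 8. None of the 6 short sequences named above was called for a difference between tissues by limma.

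**Figure D5:**
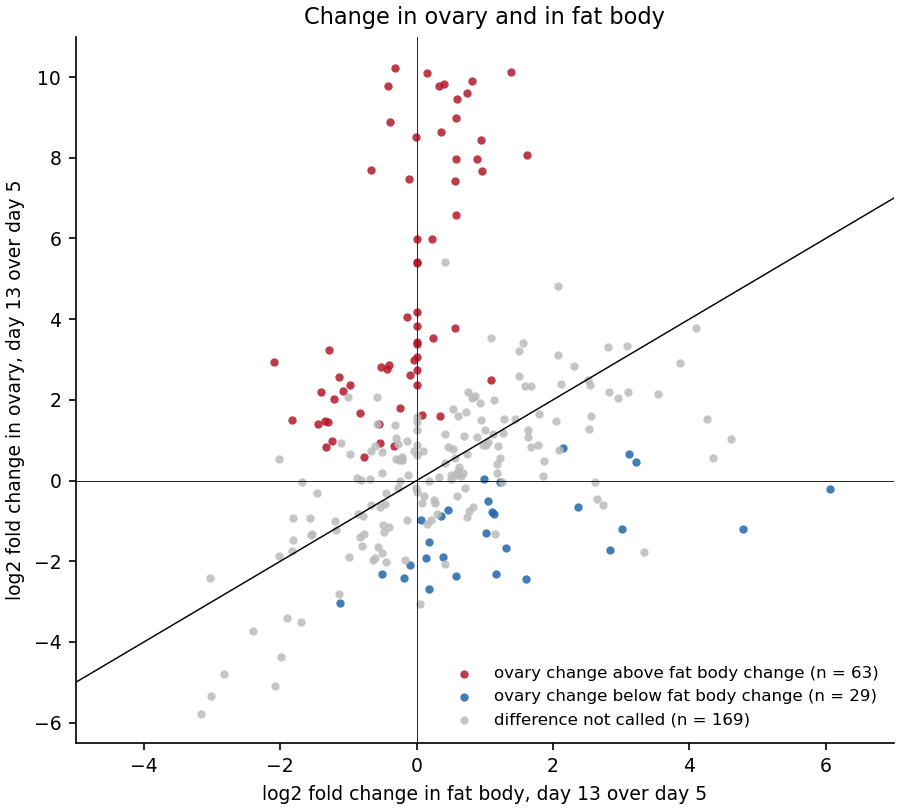
Log2 fold change of day 13 over day 5 in ovary (y axis) against fat body (x axis) for the 261 members, from the same limma fit with 2 libraries per group; the diagonal marks equal change. The 63 sequences with the more positive ovary change include a column near 0 in fat body and above 4 in ovary, and the short sequences with the largest falls lie at the lower left with both changes below 0.

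Around the minimum of 10, the members just inside were dme-miR-993-5p_L+1R-3, whose second highest value was 10.2, and PC-5p-190753_36 and bmo-miR-2779_L-2_1ss3AN at 10.6. Just outside lay PC-3p-62216_161, PC-5p-32660_368 and PC-5p-107605_77 at 9.95.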

How the data were processed

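Small RNA of total RNA extracted with Trizol was sequenced with a TruSeq small RNA kit on an Illumina HiSeq instrument, and ACGT101-miR removed adapter dimers, junk, common RNA families and repeats, per the labels' protocols. Of the aligner, the genome build and the scaling, the sources used here say nothing. The deposited table gives a normalised signal per mature sequence, per the file headers. It has 788 entries for 747 sequences, and the 41 repeated entries, with identical values, were summed. Of the 16 libraries, 12 were used: days 1, 5 and 13 of ovary and fat body. Samples were taken as labelled, although the series text counts fewer.

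Values were taken as log2(value + 1). limma (3.58.1, in R 4.3.3, intensity trend, not robust) fitted 6 group means, with 6 residual and 4.04 prior degrees of freedom, to the 308 sequences that reached 10 in 2 or more of the 12 libraries, and p-values were adjusted by Benjamini-Hochberg over all of them. The method was tested on simulated data. Reads were recovered as value divided by the smallest step of each library and used for edgeR (4.0.16) and DESeq2 (1.42.0) as alternatives. A sequence at 0 in both libraries of a day was set at a floor of 3 reads per library. The floor covers counting error only, as reads with no molecular identifier need not stand for separate molecules. No library was a copy of its replicate: over the recovered reads, the chi-square divided by its degrees of freedom was 169.9 at ovary day 13 and 31.3 at ovary day 5.

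Named sequences were the 15 called members with the largest change in each direction, days not overlapping and the higher mean at least 100; the 10 most abundant per day; list members; the 10 largest tissue differences; and the 5 least changed with a mean of at least 1000. PC-3p-2124_7946, bdo-miR-11595_R+2, bdo-mir-308-p3, miR-279, miR-283, miR-996, bdo-miR-10, pte-miR-10-5p_1ss12TA, bdo-mir-993-p5 and PC-5p-27616_453 were named after their values were seen. Members and lists were chosen with earlier results of these data known. Alternatives were other scales, pseudocounts (0.5 and 10), filters, sets of libraries, a replicate block, no trend, edgeR, DESeq2 and leaving out each library.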

Additional observations from a re-analysis of the deposited data

Results flagged for a closer look

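For 10 sequences the change between days differed most between the tissues by the test of the difference itself (limma interaction, adjusted p under 0.05 in each). As the log2 change in ovary minus that in fat body, the values were 10.53 for bdo-miR-5b, 10.20 for bdo-miR-318, 9.95 for bdo-mir-5a-p3, 9.46 for bdo-mir-4-p5, 9.43 for bdo-miR-6 and 9.27 for bdo-miR-994_R+1. They were 9.10 for bdo-miR-309b, 8.87 for bdo-miR-4_R-2, 8.87 for bdo-miR-309a_R-2 and 8.75 for dme-miR-6-3p_R-2_1ss1TC. Over these sequences and both libraries, the lowest ovary value at day 13 was 3074 (bdo-miR-309a_R-2), and the highest fat body value at that day was 749 (bdo-miR-994_R+1).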

How the results depend on the processing

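Without list members that enter by no other part, the rule names 42 sequences, with 42 changes between days and 10 differences between tissues. Of these, 35 changes and the 10 differences were called, and under the alternatives 1317 of their values kept their direction and side of the threshold, 13 kept the direction but no longer passed, and 0 reversed. The 13 were of dme-miR-274-5p_R-1, dme-miR-1-3p_R+1, bdo-miR-1, bdo-miR-999, bdo-miR-184, bdo-miR-12_R+1 and bdo-miR-11, the last pair also with other scales. List members outside these 42 sequences are not in the counts. Among them, bdo-miR-275 was called higher on the deposited values, and its sign turned with library totals.

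Of the other 7 named changes, none called, 169 values kept their direction and stayed uncalled, 6 passed and 35 turned. The 6 were miR-277 with library totals and with TMM without the 5 most abundant, and miR-989 with only the 4 or 6 ovary libraries and without either fat body day 13 library. With library totals, library totals without the late ovary sequences (miR-309 cluster, miR-318 and miR-994), TMM, TMM without the 5 most abundant and edgeR, in this order, the log2 change was -0.98, -0.47, -0.55, -0.78 and -0.52 for miR-276a (called on each), -0.59, -0.08, -0.16, -0.39 and -0.15 for miR-8, -0.69, -0.17, -0.25, -0.48 and -0.24 for miR-304, -0.89, -0.37, -0.45, -0.68 and -0.43 for miR-2b, and -0.88, -0.37, -0.44, -0.68 and -0.42 for miR-100. Library totals and TMM without the 5 most abundant also called miR-304, miR-2b and miR-100. With DESeq2 the change was -0.28 for miR-276a, -0.01 for miR-304, -0.21 for miR-2b and -0.20 for miR-100. Leaving out 1 library at a time gave -0.19 (without ovary day 13 replicate 2) to 0.27 for miR-276a, also -0.08 without ovary day 5 replicate 2. It gave -0.18 to 0.10 (without ovary day 5 replicate 2) for miR-277, also 0.08 without ovary day 13 replicate 2. Without ovary day 13 replicate 1, the lowest values were reached for miR-2b (-0.02 to 0.30) and miR-100 (-0.05 to 0.34).

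Of the members, 141 were called, and 78 in a fit to all 16 libraries, which adds the day 9 libraries to the pooled spread. Called higher were 96, and 54 with library totals, 59 with TMM without the 5 most abundant and 56 with all 16 libraries. Called lower were 45, and 71 with library totals, 27 with only the 4 ovary libraries and 22 with all 16. Leaving out 1 library at a time gave 104 to 142 called, and the lower calls ran between 29 (without ovary day 5 replicate 1) and 43. Where that left a group with 1 library, this library was assumed to vary like the other groups. For the difference between tissues, 92 were called, 40 with all 16 libraries; the higher calls were 63, 31 with all 16 and 35 with edgeR; the lower calls were 29, 51 with TMM without the 5 most abundant and 9 with all 16. The cause of these moves was not tested, apart from the added spread of day 9. Library totals without the miR-309 cluster, miR-318 and miR-994, a scale chosen after seeing the data, gave 80 higher and 61 lower.

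The replicate numbers were not treated as pairs, since the replicate differences of 6 of 15 pairs of groups correlated above 0.1 (-0.507 to 0.361, and -0.382 between ovary day 13 and day 5). With a replicate block 136 members were called, 97 higher and 39 lower, and with the numbers of ovary day 13 crossed 145. On the recovered reads edgeR called 124 (66 higher, 58 lower) and DESeq2 135 (78 and 57). The lower depth of the day 5 libraries, where 1 read is worth more signal, limits values under about 10.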

Other observations

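The arms of a hairpin were compared within a library, where the scale of the library cancels; this comparison was chosen after seeing the data. Of 47 hairpins with both arms among the members, limma called a change in the log2 ratio of the arms for 12 (25.5%), adjusted over the 47. Among the 27 whose lesser arm had at least 10 in all 4 libraries, 8 were called, with a gain of the lesser arm in 3 and a loss in 5. Arms were paired by name, and these counts include miR-6497 as a called loss (log2 ratio change -2.66, adjusted p = 0.00294). Its paired sequences overlap, the end of the first being the start of the second, so they cannot be opposite arms of a hairpin. For miR-988 the arm with more signal differed between the days. The 5′ arm sequence bdo-miR-988 held 33.4% and 24.4% of both arms' signal at day 13, against 72.1% and 77.4% at day 5 (log2 ratio change -2.85, SE 0.55, adjusted p = 0.00725), with 87.1 and 74.1 at day 13, against 101 and 128 at day 5. The 3′ arm sequence bdo-mir-988-p3 had 174 and 230 at day 13, against 39.1 and 37.3 at day 5. For miR-275 the 5′ arm gained on the 3′ arm (log2 ratio change 2.58, SE 0.51, adjusted p = 0.00725). The 3′ arm of let-7 likewise took 1.57% and 1.05% at day 13, against 0.39% and 0.38% at day 5 (log2 ratio change 1.72, SE 0.39, adjusted p = 0.0117). For miR-284 the 5′ arm took 12.1% and 9.92% at day 13, against 30.4% and 40.9% at day 5 (log2 ratio change -2.14, SE 0.42, adjusted p = 0.00725).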
